A study of Bos taurus with 9 samples.

Results

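Chromatin immunoprecipitation followed by sequencing (ChIP-seq) of rumen tissue from Holstein cattle was used to ask where trimethylated lysine 9 of histone H3 (H3K9me3) was detected in only one of 2 conditions, control tissue collected before treatment or tissue collected after 24 h of butyrate treatment. Butyrate, a short-chain fatty acid made by rumen microbes, inhibits histone deacetylases and was given by infusion according to the study. The regions described here were found by merging overlapping H3K9me3 peaks of the control and the butyrate list on chromosomes 1 to 29 of the bovine assembly UMD3.1, and keeping the merged regions that held a peak of one list only and did not overlap an RNA polymerase II (RNA pol II) peak of either condition. This gave 2408 regions out of 2888 merged H3K9me3 regions on these chromosomes, in a series of 86291 peaks. Of the 2408 regions, 1110 held a control peak only (control-only) and 1298 a butyrate peak only (butyrate-only). Each of them was a single peak. The 234 regions with peaks of both lists and no RNA pol II peak, called kept here, served as the comparison.

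H3K9me3 is the mark of constitutive heterochromatin. It is written by methyltransferases of the SUV39H and SETDB families and read by HP1 proteins, and it keeps satellite DNA around centromeres, transposable elements and clusters of repeated genes silent. H3K27ac and H3K9ac mark active enhancers and promoters, and a lysine 9 that is acetylated cannot carry the methyl mark at the same time.

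Each condition had 1 library per antibody, and no source used here gives the number or the age of the animals. No difference between the conditions therefore has a replicate check, and none was tested. The control H3K9me3 library was run on lane 3 and the butyrate library on lane 4, so lane and condition cannot be told apart. The same holds for H3K27ac and H3K9ac, with control on lane 1 and butyrate on lane 3. Both RNA pol II libraries were on lane 3. The lists hold positions without scores or read numbers, so the depth behind each region is unknown. Intervals in parentheses are 95% intervals of the counts. They cover counting error only, and are too narrow where neighbouring regions are not independent. The regions were chosen by the presence of a peak in one H3K9me3 list, its absence from the other and the absence of RNA pol II peaks. The sizes of the classes, their widths and their distances to H3K9me3 and RNA pol II peaks are tied to that choice and are given as a description. Positions along the chromosomes and H3K27ac and H3K9ac peaks did not enter it directly, though the RNA pol II filter also removed regions under H3K27ac.

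Most H3K9me3 regions of these chromosomes were found in one condition only. Before the RNA pol II filter, 40.9% of the 2888 merged regions held a control peak only and 47.1% a butyrate peak only, 88.0% together. The filter removed few of them. RNA pol II peaks lay over 70 of 1180 control-only regions, or 5.93% (4.72 to 7.43), and over 63 of 1361 butyrate-only regions, or 4.63% (3.63 to 5.88), but over 113 of 347 regions with peaks of both lists, or 32.6% (27.8 to 37.7). Among the control-only regions removed, 29 were under a control RNA pol II peak alone, 33 under a butyrate one alone and 8 under both. Among the butyrate-only regions removed, these numbers were 13, 39 and 11. The ratio of butyrate-only to control-only regions after the filter was 1.17, a log2 ratio of 0.23 (0.11 to 0.34).

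The boundary of the rule is a single base pair, and the regions on either side of it show how narrow it can be. The control-only region nearest to a butyrate peak lay at chr17:44940844-44941103 (260 bp). It was directly adjacent to the butyrate-only region at chr17:44940561-44940843 (283 bp), so that the same stretch of chromosome 17 gave 1 region of each class. The next pair was on chromosome 22, where a control-only region at chr22:16442110-16442482 (373 bp) lay 20 bp from a butyrate-only region at chr22:16441829-16442090 (262 bp). On the other side of the boundary, the peaks of the kept regions at chr18:7688293-7688685 and chr18:55443426-55444021 shared 7 and 27 bp. Such small overlaps were uncommon, with 6 of the 234 kept regions below 50 bp and a median overlap of 215 bp.

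Regions of this kind were a minority. An H3K9me3 peak of the other condition lay at most 1 kb away for 73 control-only regions, 6.58% (5.26 to 8.19), and for 84 butyrate-only regions, 6.47% (5.26 to 7.94). Within 10 kb these shares were 17.5% (15.4 to 19.8) and 21.1% (19.0 to 23.4). The median distance to a peak of the other condition was 309 kb (258 to 375) for control-only and 167 kb (120 to 231) for butyrate-only regions. Most regions thus had no H3K9me3 peak of the other condition within 10 kb. The lists are sparse, with 1536 control and 1710 butyrate H3K9me3 peaks on these chromosomes. The distance that position alone would give was not computed, so these medians show neither nearness nor remoteness.

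One-condition regions were narrow as called, and both classes had nearly the same widths. The widths are those of the peaks called by the authors, which need not give the extent of the mark. The median width was 218 bp (215 to 223) for control-only and 221 bp (217 to 225) for butyrate-only regions, with upper quartiles of 261 and 269 bp. At the smallest width of the lists, 200 bp, were 334 control-only regions, 30.1% (27.5 to 32.9), and 412 butyrate-only regions, 31.7% (29.3 to 34.3). Only 12 and 13 regions were wider than 500 bp. A kept region is the union of peaks, so its peaks were measured singly for comparison. The 237 control peaks of kept regions had a median width of 252 bp (239 to 268) with 12.2% (8.66 to 17.0) at 200 bp, and the 235 butyrate peaks 283 bp (268 to 307) with 6.81% (4.23 to 10.8). A wider peak has more chance to overlap another, which bears on any difference in width between kept and one-condition peaks. In total the control-only regions covered 272 kb and the butyrate-only regions 322 kb.

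**Figure D1:**
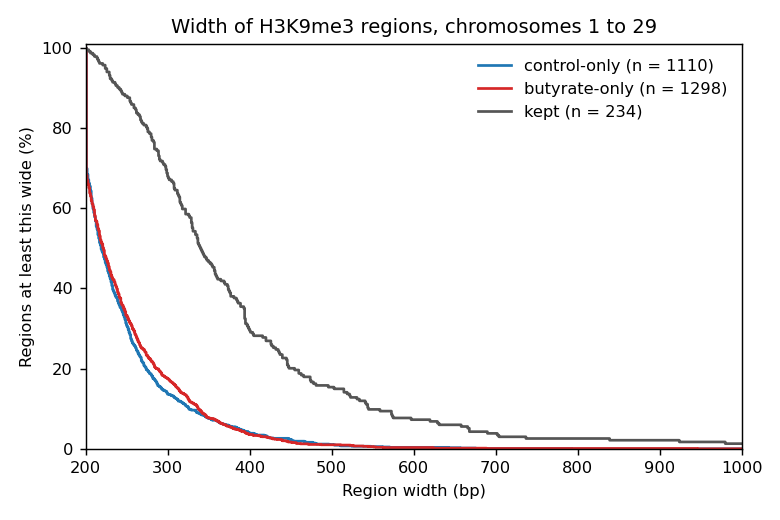
Share of H3K9me3 regions (y axis, percent) that were at least as wide as the value on the x axis (bp), for control-only, butyrate-only and kept regions on chromosomes 1 to 29, where a kept region is the union of its overlapping peaks. The curves of the 1110 control-only and 1298 butyrate-only regions run close together and drop just above 200 bp, the width of 30.1% and 31.7% of them, while the median of the 234 kept regions is 340 bp.

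The widest control-only region was chr22:55901347-55902138, with 792 bp. It had another control-only region 564 bp away, the nearest butyrate H3K9me3 peak at 835054 bp, and H3K27ac peaks at 41727 bp (control) and 41767 bp (butyrate). The next were chr14:66621651-66622325 (675 bp) and chr8:23217308-23217963 (656 bp), at 480641 and 32512 bp from a butyrate H3K9me3 peak. Control and butyrate H3K27ac peaks lay 15765 and 15829 bp from the former and 15639 and 15631 bp from the latter. The 2 remaining ones were near misses of the rule. A butyrate H3K9me3 peak lay 90 bp from chr19:33683691-33684332 (642 bp) and 66 bp from chr15:29620190-29620759 (570 bp), and the latter also lay over a butyrate H3K9ac peak.

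The 5 widest butyrate-only regions lay between 26812 and 63154 bp from the nearest control H3K9me3 peak. The widest was chr29:30358759-30359703, with 945 bp, at 57526 bp from the nearest control H3K9me3 peak and 3288 bp from another butyrate-only region. A pair of them were at the very start of chromosome 9, chr9:3922-4609 (688 bp) and chr9:40328-40951 (624 bp), with butyrate-only neighbours at 53 and 225 bp. The other 2 were chr28:39317025-39317646 (622 bp) and chr7:105841635-105842196 (562 bp), at 28064 and 36144 bp from a control peak and 27882 and 36129 bp from a kept region. All 5 were at least 53 bp and at most 3881 bp from another butyrate-only region, so each had a near neighbour of its own class.

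A larger share of butyrate-only than of control-only regions had a near neighbour of the same class. Another region of the same class lay within 100 kb of 583 butyrate-only regions, 44.9% (42.2 to 47.6), and of 367 control-only regions, 33.1% (30.4 to 35.9). The median distance to the nearest region of the same class was 180 kb (130 to 236) and 439 kb (365 to 500). Between the classes the medians were closer to each other, with 431 kb (351 to 494) from a control-only to a butyrate-only region and 426 kb (369 to 477) in the other direction. A list with more regions has closer neighbours, and the butyrate-only class was larger by a factor of 1.17.

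Kept regions were also close to a larger share of the butyrate-only regions. A kept region was within 100 kb of 297 butyrate-only regions, 22.9% (20.7 to 25.2), and of 152 control-only regions, 13.7% (11.8 to 15.8). At 10 kb the shares were 8.86% (7.43 to 10.5) and 4.86% (3.75 to 6.29). Most regions of both classes had no kept region within 100 kb, and the share expected for so few kept regions was not computed. The median distance to a kept region was 2598 kb (2190 to 3002) for butyrate-only and 3084 kb (2728 to 3574) for control-only regions, and these intervals overlapped. Both classes were measured against the same 234 kept regions, so the number of regions to meet was equal. Seen from the kept regions, the nearest butyrate-only region was at a median of 33.1 kb (17.6 to 74.5) and the nearest control-only region at 204 kb (109 to 350). In this direction the larger size of the butyrate-only class also enters. Without the 4 windows of 1 Mb described below, which hold the most regions of either class, the shares within 100 kb were 19.4% (17.3 to 21.7) for butyrate-only and 11.4% (9.58 to 13.4) for control-only regions. With chromosome X added the gap narrowed, to 30.5% (28.4 to 32.8) and 26.2% (24.1 to 28.5), and the intervals touched.

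**Figure D2:**
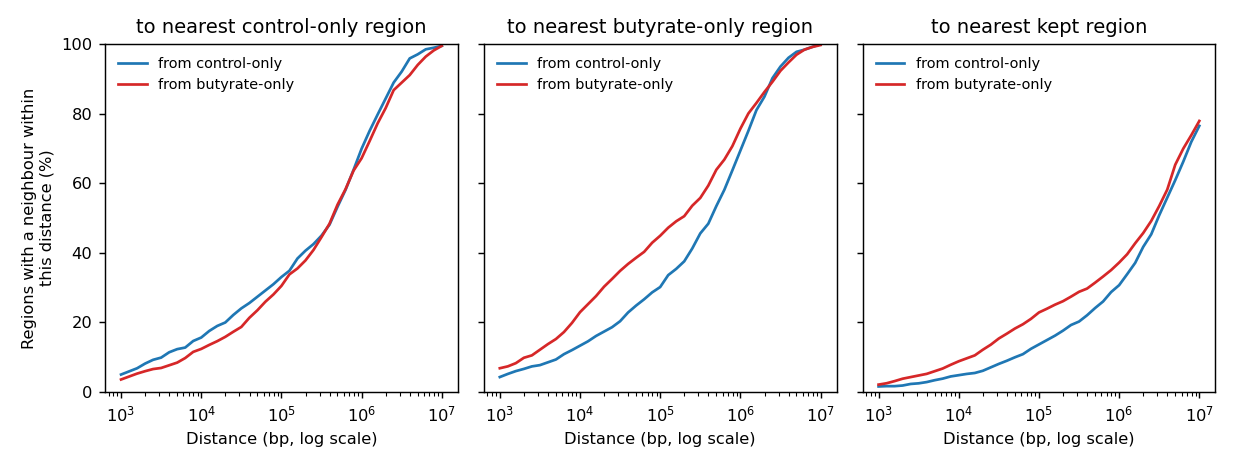
Share of control-only and butyrate-only H3K9me3 regions (y axis, percent) whose nearest control-only region (left), butyrate-only region (middle) or kept region (right) lies within the distance on the x axis (bp, log scale). At 100 kb the curve of butyrate-only regions is at 44.9% for its own class and at 22.9% for kept regions, against 30.2% and 13.7% from control-only regions, while the curves to control-only regions run close together.

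Neighbours of one class at most 100 kb apart were joined into runs. The control-only regions formed 865 runs, of which 743 were single regions and 13 held 5 or more regions. These 13 runs were on 10 chromosomes and held 112 regions, 10.1% of the class. The butyrate-only regions formed 876 runs, with 715 single regions and 31 runs of 5 or more. These 31 runs were on 18 chromosomes and held 268 regions, 20.6% of the class. The classes thus formed about as many runs, and more of the butyrate-only runs were long.

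The densest places differed between the classes. Among consecutive windows of 1 Mb, the window with most control-only regions was chr6:5000001-6000000, with 25 control-only, 8 butyrate-only and 2 kept regions. Over all its H3K9me3 peaks, those under RNA pol II included, the window held 38 control and 17 butyrate peaks. The adjoining window, chr6:6000001-7000000, came next with 19 control-only, 6 butyrate-only and 3 kept regions, and 41 control and 25 butyrate H3K9me3 peaks. Here 13 more regions with peaks of both lists were under RNA pol II, and the window had 29 control and 16 butyrate RNA pol II peaks. In the first window RNA pol II went the other way, with 7 control and 12 butyrate peaks. The 2 windows held 5 and 6 control and 4 and 3 butyrate H3K27ac peaks. The median over all windows of 1 Mb was 7 for control and 6 for butyrate.

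The window with most butyrate-only regions was chr27:28000001-29000000, with 29 butyrate-only regions, 1 control-only region and 12 kept regions. It had 13 control and 41 butyrate H3K9me3 peaks, so all but 1 of its control peaks were also found after butyrate. RNA pol II was nearly absent, with 1 control and 0 butyrate peaks, and H3K27ac had 10 control and 8 butyrate peaks. The next window was the first of chromosome 14, chr14:1-1000000, with 23 butyrate-only, 8 control-only and 4 kept regions, and 21 control and 36 butyrate H3K9me3 peaks. RNA pol II had 7 control and 14 butyrate peaks there.

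Further windows, named after their values were seen, showed both patterns. On chromosome 8 the window chr8:74000001-75000000 held 17 butyrate-only against 2 control-only regions, and chr14:14000001-15000000 held 17 against 3. On chromosome 22 the window chr22:16000001-17000000 held 12 control-only against 5 butyrate-only regions. Chromosome 18 was different, since its dense windows were rich in both classes: chr18:47000001-48000000 had 18 control-only and 14 butyrate-only regions with 1 kept region, and chr18:65000001-66000000 had 11 and 16 with none. Both of these windows were also rich in H3K27ac, with 27 and 32 control peaks and 27 and 29 butyrate peaks.

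**Figure D3:**
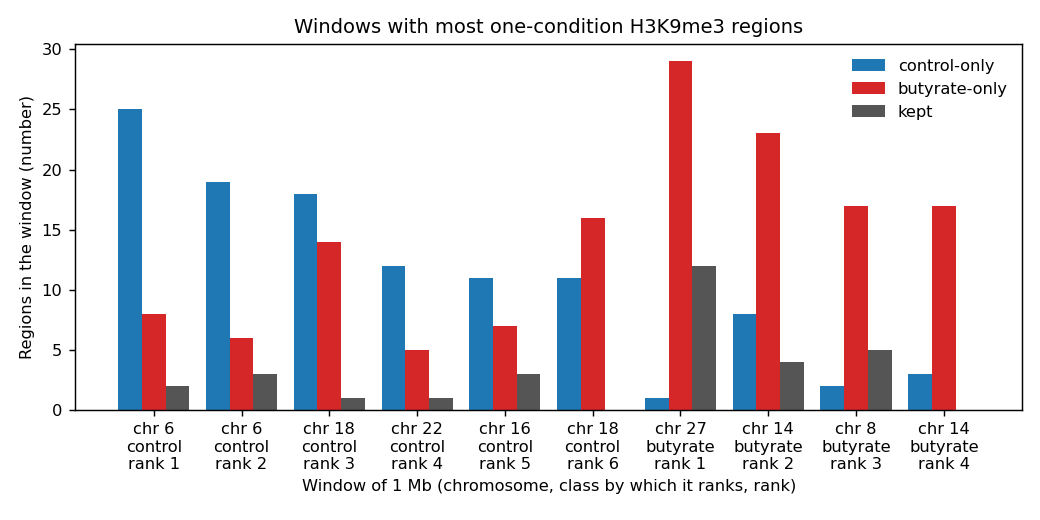
Number of control-only, butyrate-only and kept H3K9me3 regions (y axis) in windows of 1 Mb (x axis) that rank among the 6 with most control-only or the 6 with most butyrate-only regions. The 2 windows of chromosome 6 hold 25 and 19 control-only regions, the window of chromosome 27 holds 29 butyrate-only regions and 1 control-only region, and both windows of chromosome 18 hold many of each class.

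The longest runs give the shape of these places. The longest control-only run had 24 regions over 468 kb, chr6:5411333-5879149, with a median gap of 11.7 kb and a median width of 244 bp, and 4 butyrate-only and 2 kept regions lay among them. The longest butyrate-only run had 25 regions over 633 kb, chr14:14538774-15172235, with a median gap of 14.7 kb, 5 control-only regions and no kept region inside. RNA pol II had 5 control and 19 butyrate peaks in that stretch. Among the 5 longest runs of each class, the one with the smallest median gap was on chromosome 27, where chr27:28468660-28570931 held 12 butyrate-only regions in 102 kb at a median gap of 1.22 kb. They had a median width of 316 bp, no control-only region lay among them, and the run held no H3K27ac or H3K9ac peak of either condition. A second run on the same chromosome, chr27:28674835-28939096, had 17 butyrate-only, 1 control-only and 9 kept regions, again with 0 H3K27ac and 0 H3K9ac peaks. A run of 17 butyrate-only regions at chr8:74488409-74793965 likewise had 0 peaks of both acetylation marks. The other 2 of the 5 longest butyrate-only runs, both on chromosome 14, did hold such peaks. The run of 25 regions had 6 control and 7 butyrate H3K27ac peaks with 1 and 4 H3K9ac peaks, and the run at chr14:668672-1109705 (14 regions) had 3 and 3 H3K27ac peaks with 2 and 3 H3K9ac peaks. Each of the 5 longest control-only runs held H3K27ac peaks, from 1 to 11 of control and from 2 to 11 of butyrate. The number to be expected in runs of these lengths was not computed, so a count of 0 in a short run says little.

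Over the whole of chromosomes 1 to 29 the classes shared part of their territory. Of 2523 windows of 1 Mb, 695 held a control-only region and 707 a butyrate-only region. Both classes were present in 305 windows, which is 43.9% of the former and 43.1% of the latter. Control-only regions without butyrate-only ones were in 390 windows, the reverse held for 402, and 1426 windows held neither. The overlap that position alone would give was not computed. Single regions in a window made up 44.1% of control-only and 36.4% of butyrate-only regions. Windows with 10 or more regions of a class were 6 for control-only, with 8.65% of the class, and 12 for butyrate-only, with 14.3%.

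By chromosome, chromosome 18 was the densest for both classes, with 85 control-only regions (1.29 per Mb) and 94 butyrate-only regions (1.42 per Mb). The medians over the 29 chromosomes were 0.43 and 0.46 per Mb. The sparsest were chromosome 12 for control-only regions, with 22 (0.241 per Mb), and chromosome 20 for butyrate-only regions, with 16 (0.222 per Mb). These densities depended on the narrowest peaks. With only peaks wider than 200 bp, chromosome 18 had 1.03 control-only and 0.924 butyrate-only regions per Mb, so that the order of the classes turned, and chromosome 20 had 0.0972 butyrate-only regions per Mb. Butyrate-only regions were more numerous on 21 chromosomes, control-only regions on 7, and the numbers were equal on chromosome 12. Butyrate-only regions made up 53.9% (51.9 to 55.9) of the one-condition regions over all chromosomes, and the interval of 5 chromosomes left this value out.

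On 2 of these 5 the butyrate-only share was higher. Chromosome 27 had 58 butyrate-only and 15 control-only regions, 79.5% (68.4 to 88.0), and chromosome 14 had 95 and 46, 67.4% (59.0 to 75.0). On the other 3 it was lower, with 49 and 74 on chromosome 6, or 39.8% (31.1 to 49.1), 31 and 44 on chromosome 22, or 41.3% (30.1 to 53.3), and 16 and 33 on chromosome 20, or 32.7% (19.9 to 47.5). With 29 intervals at the 95% level, some can be outside by counting error alone. Without the 4 densest windows, chromosome 6 had 35 butyrate-only and 30 control-only regions, 53.8%, so its excess of control-only regions was that of the 2 adjoining windows. Chromosome 14 without its first 1 Mb had 72 and 38, 65.5% (55.8 to 74.3). Its other dense window, chr14:14000001-15000000, with 17 butyrate-only and 3 control-only regions, was still included. Chromosome 27 had 29 and 14, 67.4% (51.5 to 80.9), an interval that includes the share over all chromosomes.

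The densities per Mb of the classes went together across the 29 chromosomes, with a Pearson correlation of 0.59 between control-only and butyrate-only regions. With kept regions it was 0.83 for butyrate-only and 0.55 for control-only regions. Without chromosomes 18 and 27 these values were 0.50, 0.63 and 0.65. The density of control H3K27ac peaks correlated with that of control-only regions at 0.60 and with that of butyrate-only regions at 0.24. Chromosomes differ in base composition and in gene density, and the lists share the input library, so these values are a description only.

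**Figure D4:**
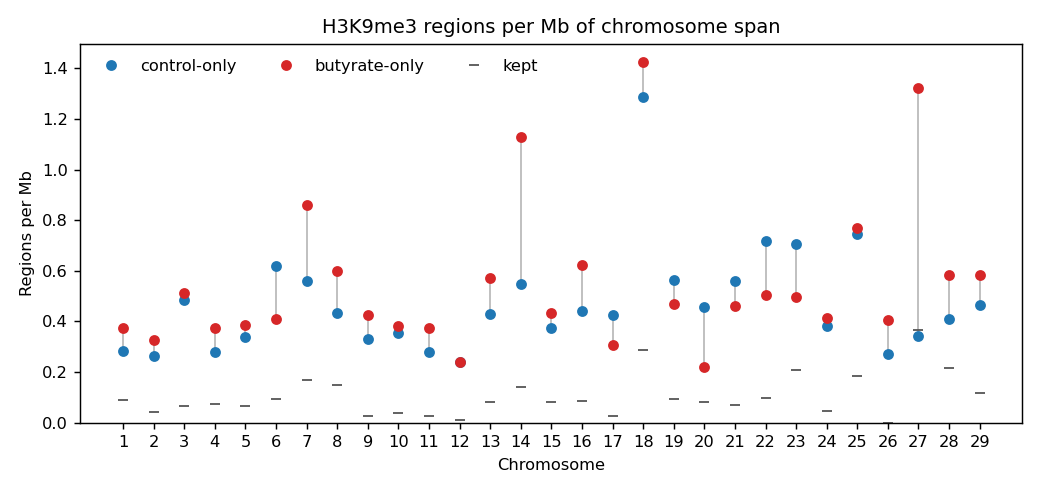
Control-only, butyrate-only and kept H3K9me3 regions per Mb of chromosome span (y axis) for chromosomes 1 to 29 (x axis), with a grey line between the control-only and the butyrate-only value. Chromosome 18 is high in both classes (1.29 and 1.42), chromosomes 14 and 27 are high for butyrate-only regions (1.13 and 1.32) with control-only values of 0.547 and 0.342, chromosome 27 also has the most kept regions per Mb (0.364), and chromosomes 6, 20 and 22 are among the 7 that lie lower for butyrate-only than for control-only regions.

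Cattle autosomes are acrocentric, which means that the centromere, with its H3K9me3-rich satellite DNA, lies at one end. The files do not say which end that is, and both ends were therefore measured. The authors kept only uniquely aligned reads, and how well reads can be aligned at either end was not tested. In the first 1 Mb of the chromosomes, which is 1.16% of the span, were 79 butyrate-only regions, 6.09% (4.91 to 7.52), and 29 control-only regions, 2.61% (1.83 to 3.73). In the last 1 Mb of the span the shares were 2.62% (1.88 to 3.64) and 2.43% (1.68 to 3.52). In the first 5 Mb, 5.78% of the span, were 10.3% (8.78 to 12.1) of butyrate-only and 6.31% (5.02 to 7.89) of control-only regions. In the last 5 Mb the order turned, with 7.86% (6.52 to 9.45) and 9.46% (7.87 to 11.3), and the intervals overlapped. Kept regions were frequent at both ends, with 7.26% (4.59 to 11.3) in the first and 5.56% (3.28 to 9.27) in the last 1 Mb.

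The difference at the first 1 Mb had the same direction on most chromosomes with such regions, but a few chromosomes gave much of it. Butyrate-only regions outnumbered control-only regions there on 15 chromosomes and were fewer on 4. The numbers were equal on 4 more, and 6 chromosomes had none. Chromosome 14 contributed most to the difference, with 23 against 8, followed by chromosome 16 with 8 against 0, chromosome 9 with 7 against 0 and chromosome 13 with 8 against 3. Without chromosome 14 the numbers were 56 and 21. Over all H3K9me3 peaks of chromosomes 1 to 29, 4.17% of the control and 6.61% of the butyrate peaks started in the first 1 Mb. The shares of the other antibodies were closer between control and butyrate or went the other way. H3K27ac had 0.679% and 0.705% of its peaks there, H3K9ac 0.687% and 0.635%, and RNA pol II 3.42% and 2.09%. For RNA pol II these were 23 of 673 and 26 of 1242 peaks, so the share fell with a longer list and not with fewer peaks there. Like the H3K9me3 shares, both RNA pol II shares were above the 1.16% of the span.

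Few one-condition regions of either class directly overlapped acetylated histones. The share that position alone would give was not computed, so the values below show neither avoidance nor enrichment. An H3K27ac peak of either condition lay over 18 control-only regions, 1.62% (1.03 to 2.55), and over 22 butyrate-only regions, 1.69% (1.12 to 2.55). The share of kept regions was 2.56% (1.18 to 5.48). For H3K9ac the numbers were 5 control-only regions, 0.450% (0.193 to 1.05), and 11 butyrate-only regions, 0.847% (0.474 to 1.51), against 3 kept regions, 1.28% (0.437 to 3.70). The RNA pol II filter took out regions that were more often under H3K27ac. With regions under RNA pol II left in, the share over a control H3K27ac peak went from 1.26% to 2.20% for control-only and from 1.46% to 2.57% for butyrate-only regions. The share over a butyrate H3K27ac peak went from 0.631% to 1.36% and from 1.00% to 1.69%.

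The acetyl peaks over these regions came from either condition. Of the 18 control-only regions over H3K27ac, 4 were under a butyrate H3K27ac peak alone, 11 under a control peak alone and 3 under both. Of the 22 butyrate-only regions, 9 were under a control H3K27ac peak alone, 3 under a butyrate peak alone and 10 under both. In both classes a control peak alone was more frequent than a butyrate peak alone, and the control H3K27ac list was also the longer one, with 36963 peaks against 32763 on these chromosomes. Of the 5 control-only regions over H3K9ac, 3 were under a control peak alone, 1 under a butyrate peak alone and 1 under both. Of the 11 butyrate-only regions, these numbers were 4, 1 and 6.

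Among the widest of these regions, chr20:4502686-4503049 (364 bp) was control-only over a control H3K27ac peak, with a butyrate H3K27ac and a butyrate H3K9ac peak both 2442 bp away. The control-only region chr15:8218114-8218457 (344 bp) also lay over a control H3K27ac peak, but with the nearest butyrate H3K27ac peak at 389014 bp. The butyrate-only region chr3:113899016-113899459 (444 bp) was under H3K27ac and H3K9ac peaks of both conditions. The butyrate-only region chr9:88294279-88294579 (301 bp) was over a control H3K27ac peak, with the nearest butyrate H3K27ac peak at 65637 bp, and over H3K9ac peaks of both conditions.

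In the wider neighbourhood, control-only regions lay nearer to H3K27ac than butyrate-only regions. The median distance to a control H3K27ac peak was 44.9 kb (41.3 to 51.8) for control-only and 70.2 kb (62.7 to 77.2) for butyrate-only regions. To a butyrate H3K27ac peak it was 56.7 kb (48.6 to 64.7) and 74.7 kb (69.5 to 84.4). The order of the classes was thus the same against either H3K27ac list. Kept regions were at 75.8 kb (62.7 to 97.7) and 96.3 kb (75.4 to 120). Within 10 kb of a control H3K27ac peak were 17.4% (15.3 to 19.7) of control-only and 13.9% (12.2 to 15.9) of butyrate-only regions. Within 10 kb of a butyrate H3K27ac peak the shares lay closer, 13.7% (11.8 to 15.8) and 12.2% (10.6 to 14.1).

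**Figure D5:**
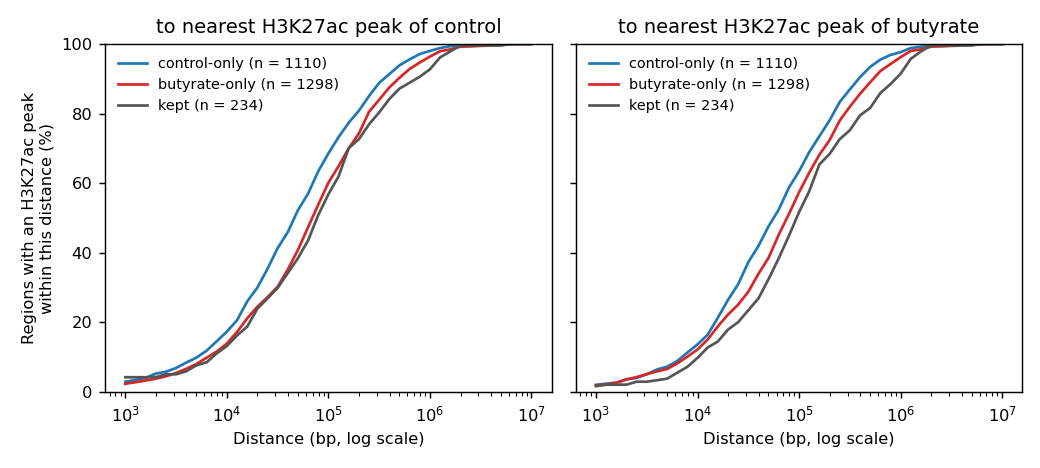
Share of control-only, butyrate-only and kept H3K9me3 regions (y axis, percent) with an H3K27ac peak of control (left) or butyrate (right) within the distance on the x axis (bp, log scale). In both panels the curve of control-only regions lies to the left of that of butyrate-only regions, with medians of 44.9 and 70.2 kb in the left and 56.7 and 74.7 kb in the right panel.

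One-condition regions were seldom in megabases devoid of H3K27ac. Of all 2523 windows of 1 Mb, 21.5% held no control H3K27ac peak. Of the control-only regions 5.95% (4.70 to 7.49) and of the butyrate-only regions 9.17% (7.72 to 10.9) were in such windows, and 11.1% (7.70 to 15.8) of the kept regions. The median number of control H3K27ac peaks in the window of a region was 13 (11 to 15) for control-only, 11 (10 to 13) for butyrate-only and 10 (7 to 12) for kept regions, against 7 over all windows. With the butyrate list the medians were 12 (10 to 13), 10 (9 to 11) and 8 (7 to 9), against 6. Windows to which few reads can be aligned hold few peaks of any antibody, and this was not corrected for.

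For H3K9ac and RNA pol II the medians of the classes differed less relative to their size, though not always less in kb. The median distance to a control H3K9ac peak was 259 kb (234 to 287) for control-only and 292 kb (264 to 319) for butyrate-only regions, and to a butyrate H3K9ac peak 253 kb (223 to 283) and 277 kb (250 to 303). The nearest control RNA pol II peak was at 1109 kb (983 to 1238) and 1047 kb (923 to 1168), and the nearest butyrate one at 620 kb (527 to 706) and 629 kb (537 to 714). The intervals of the classes overlapped for each of these lists, which does not show that the distances were equal.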

How the data were processed

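The series has 9 libraries, and the peak lists of 8 of them were used: H3K9me3, H3K27ac, H3K9ac and RNA pol II, each once in control and once after butyrate. The input was not used here. By the methods of the study, the authors aligned reads with BWA at default settings to UMD3.1.1, kept uniquely aligned reads with few mismatches, and ran MACS2 at default settings on each library against the shared input. The labels name the build as UMD3.1. The deposited values are peak starts and ends in bp, with no score or read number, so the depth behind each region is unknown. The supplement of the study has a mapping summary of its data sets, which was not used here. Library depth was therefore not corrected for. The smallest width was 200 bp in every list, with both ends counted.

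Merging, overlaps (at least 1 bp) and edge-to-edge distances were computed with Python 3.11.15, numpy 2.4.6 and scipy 1.17.1, and tested on simulated peaks. Shares of regions have Wilson intervals, the share and ratio of butyrate-only to control-only numbers exact Clopper-Pearson intervals, and medians exact order-statistic intervals. A region on a chromosome without a target counted as farther than all others. The span of a chromosome ended at the last peak of any list, 2509 Mb in all for chromosomes 1 to 29, and windows of 1 Mb were counted from position 1 with regions assigned by their start. The regions and measures were chosen with earlier results of these data known. Named in the text are, per class, the 5 widest regions, the 2 widest over H3K27ac, the 2 nearest to the other condition, the 2 windows with most regions and the chromosomes with most and fewest regions per Mb. The runs, the further windows and the chromosome ends were added after values had been seen. No gene or sequence of UMD3.1 was at hand, so genes, repeats and base composition were not analysed here.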

Additional observations from a re-analysis of the deposited data

Results flagged for a closer look

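Chromosome X, which is outside the regions described above, held one-condition H3K9me3 regions as well. Without regions under RNA pol II it had 365 control-only and 375 butyrate-only regions, or 2.45 and 2.52 per Mb of its span. These densities were above those of every one of chromosomes 1 to 29, where the highest values were 1.29 and 1.42 per Mb. X also had 150 kept regions without RNA pol II, and 122 regions with peaks of both lists under RNA pol II.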

How the results depend on the processing

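No paired analysis was possible because there was 1 library a group. Of 110 values under other settings, 78 stayed within the interval of the reported value and 32 left it, and the log2 ratio of class sizes kept its direction under all of them. The setting without the 4 densest windows was chosen after seeing the data; all others were planned. Merging peaks within 1 kb leaves no region with a peak of the other condition within 1 kb, so that share has no value under it. The cause of a shift was not tested where the setting does not make it by construction.

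With only peaks wider than 200 bp, median widths were 243 bp (control-only) and 248 bp (butyrate-only), the shares with a peak of the other condition within 1 kb 8.64% and 9.89%, and butyrate-only densities 0.924 per Mb on chromosome 18 and 0.0972 on chromosome 20. When a shared peak had to overlap by 50% of the shorter one, the control-only share within 1 kb was 8.23%. Within 5 kb instead of 1 kb, the shares were 13.2% and 15.5%. With regions under RNA pol II kept, 2.20% of control-only regions were over a control and 1.36% over a butyrate H3K27ac peak, 2.57% of butyrate-only regions were over a control H3K27ac peak, and 18.3% and 27.3% were within 100 kb of a kept region. With X added, the shares within 1 kb of the other condition were 9.56% and 8.79%, those within 100 kb of a kept region 26.2% and 30.5%, and the control-only median distances to H3K27ac 55.3 kb (control) and 65.4 kb (butyrate). Within 1 Mb instead of 100 kb, a kept region was near 30.7% and 37.2%, and a region of the same class near 69.9% and 75.7%. Without the 4 densest windows, a kept region was within 100 kb of 11.4% and 19.4%, and a region of the same class within 100 kb of 30.1% and 42.2%. That last pair was 27.8% and 38.3% with peaks within 1 kb merged, and 44.9% and 52.4% with X added.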
